A study of Hormonema carpetanum with 4 samples.

Results

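Hormonema carpetanum is a filamentous fungus that makes the antifungal triterpene glycoside enfumafungin from a cluster of efu genes. The genes described here are those whose best Swiss-Prot hit is an efu protein but that lie elsewhere in the gene numbering than the cluster, which runs from gene04127 to gene04142, and that are above 0 TPM in some library. They are 7 of the 10951 genes in the table. Of the 21 gene models with an efu best hit, 13 lie in the cluster, and 1 outside it, an efuI hit (gene03261), is listed at 0 in every library and was left out. The member nearest to that limit was gene05861, whose highest value was 2.30 TPM.

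RNA-seq was done on mycelium from fermentation broth. The wild type, ATCC 74360, was sampled at day 14. The mutant, ENF-5-29, was sampled at day 14 and, in cultures held at 19 °C or 25 °C, at day 18. Each of these 4 groups has 1 library. The titles give no temperature for the day 14 libraries, and the extraction protocol names 18 days for both strains where the titles say day 14. The labels name neither the mutated genes nor how many cultures a library holds, and the mutant is a single strain. With 1 library per group no difference here has a replicate check, no p-value is given, and the spread between cultures is unknown. Values are TPM, transcript abundances scaled to the same total in each library, a level that takes account of gene length, so levels of different genes can be compared within a library. The libraries held 8569 to 8942 genes at 1 TPM or more. In bulk RNA, fewer hyphae of one kind and less RNA in each cannot be told apart.

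Enfumafungin is built when the synthase efuA cyclises a linear triterpene precursor and joins a sugar to it, after which cytochrome P450 enzymes and other oxidases add oxygen and an acetyltransferase adds an acetyl group. The semisynthetic drug ibrexafungerp is derived from this compound. Cytochrome P450 enzymes are heme proteins that insert oxygen into small molecules, and fungi carry large families of them, so a best hit to a cluster enzyme marks a relative and does not give the substrate.

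By annotation the 7 genes are relatives of 4 cluster proteins. Of these, gene05027, gene01814, gene01941 and gene05861 match the P450 efuB, gene06638 matches the hydroxylase or desaturase efuI, gene08787 matches the dehydrogenase efuE, and gene01340 matches the transporter efuF. The 4 efuB hits carry the same p450 domain as the cluster gene, gene01340 the same major facilitator domain as efuF, and gene08787 the same pair of 2-hydroxyacid dehydrogenase domains as efuE, which has a further domain. Neither gene06638 nor the cluster gene efuI has a Pfam domain in the table. The second database, Nr, was read as well. All 13 cluster models have a best Nr hit in Hormonema carpetanum, against 1 of the 7, gene01814, whose hit is a P450 named CYP65EW3. Only 17 of the 9695 genes with an Nr hit have one in this species. The lack of such a hit is therefore usual outside the cluster and does not mark the members. For 4 of the 7 the Nr hit is in Delphinella strobiligena, a related fungus, as it is for 65.2% of all genes with an Nr hit. The gene model gene05861 also carries a fungal transcription factor domain, and no other gene in the table has both domains. No member had the same 4 values as another gene.

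Levels differed widely among the members, and a pair of them held most of the transcripts. The efuB hit gene05027 and the efuI hit gene06638 together made up 91.8% of the members' summed TPM in the wild-type library and 95.1%, 97.9% and 98.4% of it in the mutant libraries of day 14, 19 °C and 25 °C. The gene in the lead changed, since gene06638 was 86.4% of the sum in the wild type and gene05027 was 84.8% of it for the day 14 mutant. The sum itself was 496.4 TPM in the wild type and 549.5, 1077 and 792.4 TPM in the mutant at day 14, 19 °C and 25 °C. The cluster genes summed to 537.7, 30127, 14842 and 8724 TPM in the same libraries. The members therefore held 48.0% of all efu-hit transcripts in the wild type, but 1.79% in the day 14 mutant, with 6.76% and 8.33% at day 18.

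**Figure D1:**
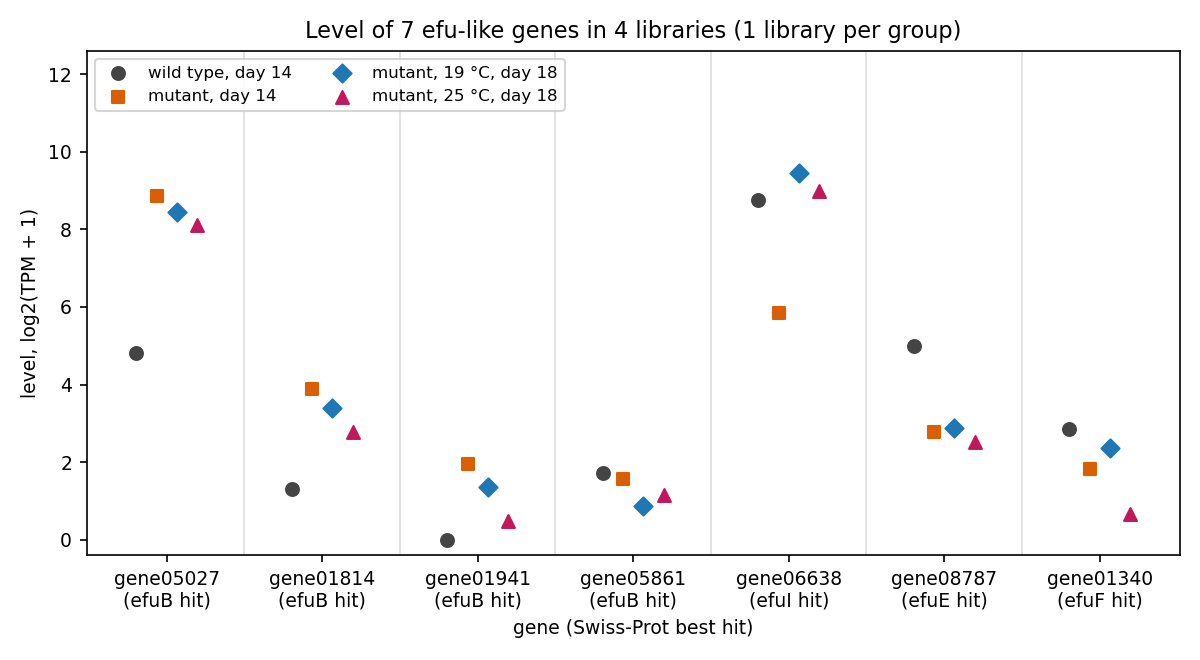
Level of each of the 7 genes, as log2 of TPM plus 1, in the 4 libraries; each point is 1 library. The wild type is the lowest point for 3 of the efuB hits and the highest for gene05861, gene08787 and gene01340, while for gene06638 the mutant at day 14 is the lowest.

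The strains were compared at day 14, the comparison that asks how the mutant differs from the wild type. All 7 genes passed the filter of 1 TPM in 1 of the libraries compared, in this and in the other comparisons. On the log2 scale of TPM plus 1, 3 of the 7 were higher in the mutant by 2-fold or more, as were 40.7% of the 9272 tested genes, and 3 were lower by 2-fold or more, as were 14%. The median ratio of the 7 was -0.16 and that of all tested genes 0.64. After rescaling by the median ratio the table had 24.7% higher and 26% lower, in place of a split in which 74.4% of calls were higher, and the counts of the 7 stayed at 3 and 3.

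Among the P450 relatives, gene05027 had the highest level. The wild-type library had 27.1 TPM, and the mutant had 466.0 TPM at day 14, 350.4 TPM at day 18 in the 19 °C culture and 274.8 TPM in the 25 °C one. The mutant libraries all lay above the wild type, the lowest of them 10.2-fold above it. At day 14 the plain fold was 17.2 and the log2 ratio 4.06, larger than that of 97.8% of tested genes. Among the 76 genes with a p450 domain its level ranked 15 from the top in the wild type, 5 in the day 14 mutant and in the 19 °C culture, and 4 in the 25 °C culture. By its strain ratio it ranked 8 of the 70 tested, below the cluster P450 genes efuG (gene04133) and efuH (gene04132), which ranked 1 and 3.

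The second relative, gene01814, followed the same order at a far lower level. The wild-type library had 1.47 TPM, and the mutant had 13.7 TPM at day 14, 9.48 TPM at day 18 in the 19 °C culture and 5.87 TPM in the 25 °C one. Its log2 ratio at day 14 was 2.57, a plain fold of 9.32, and its lowest mutant library was 3.99-fold above the wild type. The third, gene01941, was listed at 0 in the wild type and stood at 2.90, 1.58 and 0.40 TPM in the mutant libraries in the same order. Its log2 ratio of 1.96 depends on the pseudocount and no fold is given, and with a pseudocount of 5 TPM the ratio was 0.66, under the 2-fold limit. For these 3 genes the mutant at day 14 was highest, then 19 °C, then 25 °C, then the wild type, in the values as deposited. After rescaling by the median ratio the 19 °C library was above the mutant at day 14 for gene05027 and gene01814. Their log2 ratios to day 14 were then 0.15 and 0.024, so the order depends on the scaling. The fourth, gene05861, did not share the order as deposited. The wild-type library had 2.30 TPM, and the mutant had 1.95 TPM at day 14, 0.84 TPM at day 18 in the 19 °C culture and 1.21 TPM in the 25 °C one, with a log2 ratio at day 14 of -0.16.

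The efuB gene of the cluster itself (gene04142) was among the low P450 genes, at 1.56, 1.69, 2.18 and 0.88 TPM in the wild type, the mutant at day 14, 19 °C and 25 °C. In level, gene05027 was 17.4-fold above it in the wild type and 275.8-fold, 160.7-fold and 312.3-fold above it in the mutant libraries. Since gene04142 was this low and the depth is unknown, the size of any fold over it is uncertain. Of all transcripts with an efuB best hit, gene05027 made up 83.5% in the wild type and 95.8% to 97.0% in the mutant libraries. The level of gene01814 was close to that of gene04142 in the wild type, at 0.942 times its value, and 4.35-fold to 8.11-fold higher in the mutant libraries.

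**Figure D2:**
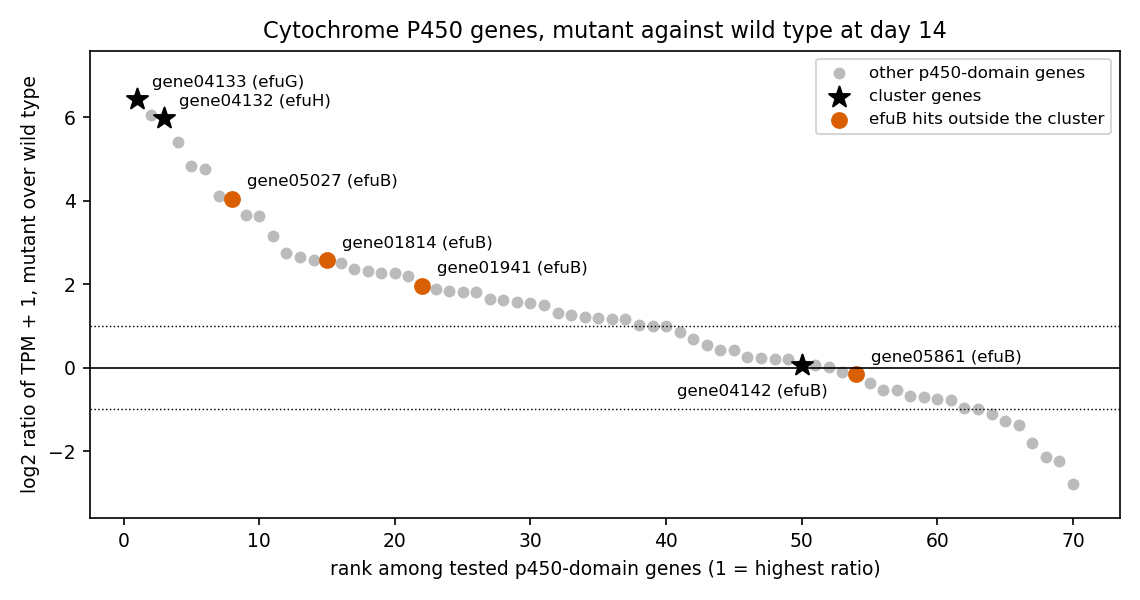
Log2 ratio of TPM plus 1, mutant over wild type at day 14, for the 70 tested genes with a p450 domain, ranked from the highest; dotted lines mark 2-fold. Of the efuB hits outside the cluster, gene05027, gene01814 and gene01941 rank 8, 15 and 22, and gene05861 ranks 54, close to the cluster efuB gene at 50.

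P450 genes as a family were often higher in the mutant at day 14. Of the 70 tested with the domain, 39 were at least 2-fold higher and 7 lower, and their median log2 ratio was 1.19 beside 0.64 for all tested genes. The list of genes named as cytochrome P450 gave 38 of 65 higher and 6 lower. After rescaling by the median ratio the domain family had 28 higher and 17 lower, with a median of 0.47. Its smallest ratio belonged to a gene with a best hit to CYP13A1 (gene06261), with 48.6 TPM in the wild-type library and 6.15 TPM in the mutant one.

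Between the strains at day 14, the efuI relative gene06638 went the other way from its cluster counterpart. The wild-type library had 428.8 TPM, and the mutant had 56.6 TPM at day 14, 703.9 TPM at day 18 in the 19 °C culture and 504.8 TPM in the 25 °C one. The mutant at day 14 was the one low library, and the wild type lay between it and the day 18 libraries. The wild type was 7.58-fold above the mutant at day 14, a log2 ratio of -2.90, and only 2.07% of tested genes had a smaller one. A level at least 2-fold lower in the mutant at day 14 than in each of the other 3 libraries was found in 287 of 9508 genes, 3.02%, and gene06638 was the only member among them. This pattern was looked for after its values were seen, and it rests on 1 library.

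The cluster gene efuI (gene04131), annotated as a hydroxylase or desaturase, was at 204.7, 15829, 7402 and 2070 TPM in the same order of libraries. In the wild type gene06638 was 2.10-fold above it in level. In the mutant the cluster gene was 279.9-fold above gene06638 at day 14, 10.5-fold at 19 °C and 4.10-fold at 25 °C. The table has 6 genes with a hydroxylase or desaturase hit of this kind. Of the others, a hit to poxK (gene05735) also had its lowest value in the mutant at day 14, at 135.3, 11.97, 104.6 and 205.7 TPM. A hit to CTB9 (gene10680) did not, at 0.99, 5.06, 3.27 and 5.09 TPM, and the remaining hits, gene02065 and gene03261, were listed at 0 throughout. In the wider list named as hydroxylase or desaturase, 12 of 33 were higher and 8 lower in the mutant at day 14, and gene05735 had the smallest ratio, -3.39. After rescaling by the median ratio the list had more genes lower than higher, 11 against 7 of 34.

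The efuE relative gene08787, a member of the family that interconverts 2-keto acids and 2-hydroxy acids, was highest in the wild type. The wild-type library had 30.6 TPM, and the mutant had 5.83 TPM at day 14, 6.37 TPM at day 18 in the 19 °C culture and 4.71 TPM in the 25 °C one. The wild type was 4.81-fold above the highest mutant library, and the mutant libraries lay between 4.71 and 6.37 TPM. At day 14 the log2 ratio was -2.21, and 4.02% of tested genes had a smaller one. Of the 15 genes with the NAD-binding domain of this family it had the second lowest strain ratio, behind a gene with a best hit to formaldehyde dehydrogenase AdhA (gene08885) at -3.87, while 7 of the 15 were higher in the mutant by 2-fold or more and 2 lower, or 5 and 3 after rescaling by the median ratio. Of 254 genes named as dehydrogenases 127 were higher and 40 lower, or 86 and 60 after that rescaling. Both gene08787 and the cluster gene efuE carry the symbol gyaR, used for glyoxylate reductase. The cluster gene efuE (gene04138) stood at 4.43, 11.2, 4.44 and 7.82 TPM. The relative was thus 6.91-fold above the cluster gene in the wild type, and at 0.519, 1.43 and 0.602 times its level in the mutant libraries.

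The efuF relative gene01340, a predicted membrane transporter of the major facilitator family, was low in every library. The wild-type library had 6.20 TPM, and the mutant had 2.52 TPM at day 14, 4.19 TPM at day 18 in the 19 °C culture and 0.58 TPM in the 25 °C one. The wild type was highest, 1.48-fold above the 19 °C library, so its place above the mutant is narrow. Its log2 ratio at day 14 was -1.03, just past the 2-fold limit, and -0.57 with a pseudocount of 5 TPM. The cluster transporter efuF (gene04137) stood at 0.90, 4.19, 1.68 and 2.23 TPM. The relative exceeded it 6.89-fold in the wild type and 2.49-fold at 19 °C, and the cluster gene was the higher 1.66-fold in the mutant at day 14 and 3.84-fold at 25 °C. Of 326 tested genes with the major facilitator domain, 113 were higher in the mutant at day 14 and 60 lower, and rescaling by the median ratio turned this split to 71 higher and 110 lower. Genes named as transporters gave 110 of 347 higher and 64 lower, and 64 of 348 higher and 111 lower after that rescaling.

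**Figure D3:**
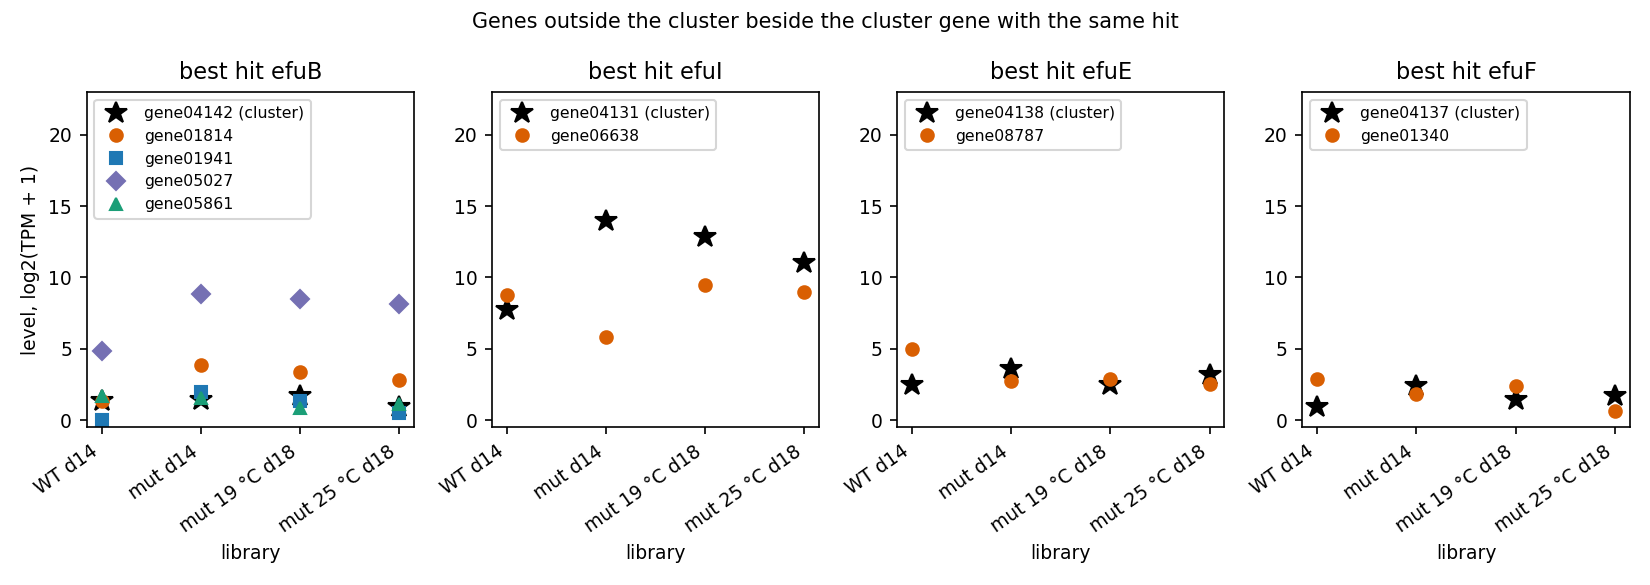
Level, as log2 of TPM plus 1, of each gene outside the cluster (coloured points) beside the cluster gene with the same best hit (black stars) in the 4 libraries, 1 panel per efu protein. In the wild type the relatives of efuI, efuE and efuF lie above the cluster gene; in the mutant at day 14 all 3 lie below it, and gene05027 lies above the cluster efuB gene in every library.

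Across the 4 libraries the wild type was below all 3 mutant libraries for 3 of the 7 genes, where 43% of 9508 genes were, and above all 3 for another 3, where 24.2% were. With a margin of 2-fold, added after the values were seen, 3 remained below and 1, gene08787, above, beside 23.1% and 10.3% of genes. All members with the wild type lowest were efuB hits.

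Temperature was compared in the mutant at day 18, which asks how the genes differ between a cooler and a warmer fermentation. Of the 7, 1 was at least 2-fold higher at 19 °C, beside 10.9% of 9064 tested genes, and 0 were lower, beside 21.4%. The higher gene was gene01340, at 4.19 TPM against 0.58 TPM, with a log2 ratio of 1.72 that was larger than that of 96.3% of tested genes. Both values are low, and with a pseudocount of 5 TPM the ratio was 0.72. For the 2 abundant members the ratios were 0.35 for gene05027 and 0.48 for gene06638. For gene01941 the ratio was 0.88, or 1.75 with a pseudocount of 0.1 TPM. The median of the 7 was 0.48 and that of all tested genes -0.21. Apart from gene01340 all members were within 2-fold, with gene05861 at -0.26. Higher genes made up 33.7% of all calls as deposited and 45.4% after rescaling by the median ratio.

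The mutant at day 18 was also set against the mutant at day 14, in comparisons that share the day 14 library. The titles give no temperature for that library, so day and temperature cannot be told apart in these comparisons. At 25 °C, 1 of the 7 was at least 2-fold higher at day 18, beside 14.1% of 9236 tested genes, and 3 were lower, beside 24.4%. At 19 °C, 1 was higher, beside 7.98% of 9119 tested genes, and 0 were lower, beside 27.9%. Rescaling by the median ratio turned the share of calls that were higher from 36.7% to 57.0% at 25 °C and from 22.2% to 59.2% at 19 °C. The higher gene was gene06638 both times, by 8.92-fold at 25 °C and 12.4-fold at 19 °C, with log2 ratios of 3.14 and 3.61 that exceeded those of 98.5% and 99.6% of tested genes. The lower genes at 25 °C were gene01340, gene01814 and gene01941, with log2 ratios of -1.16, -1.10 and -1.48; rescaling by the median ratio left gene01941 past the limit, with the others at -0.89 and -0.76. The abundant efuB hit gene05027 had ratios of -0.76 at 25 °C and -0.41 at 19 °C, and the latter was 0.15 after that rescaling. The other ratios lay between -0.68 and 0.56.

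**Figure D4:**
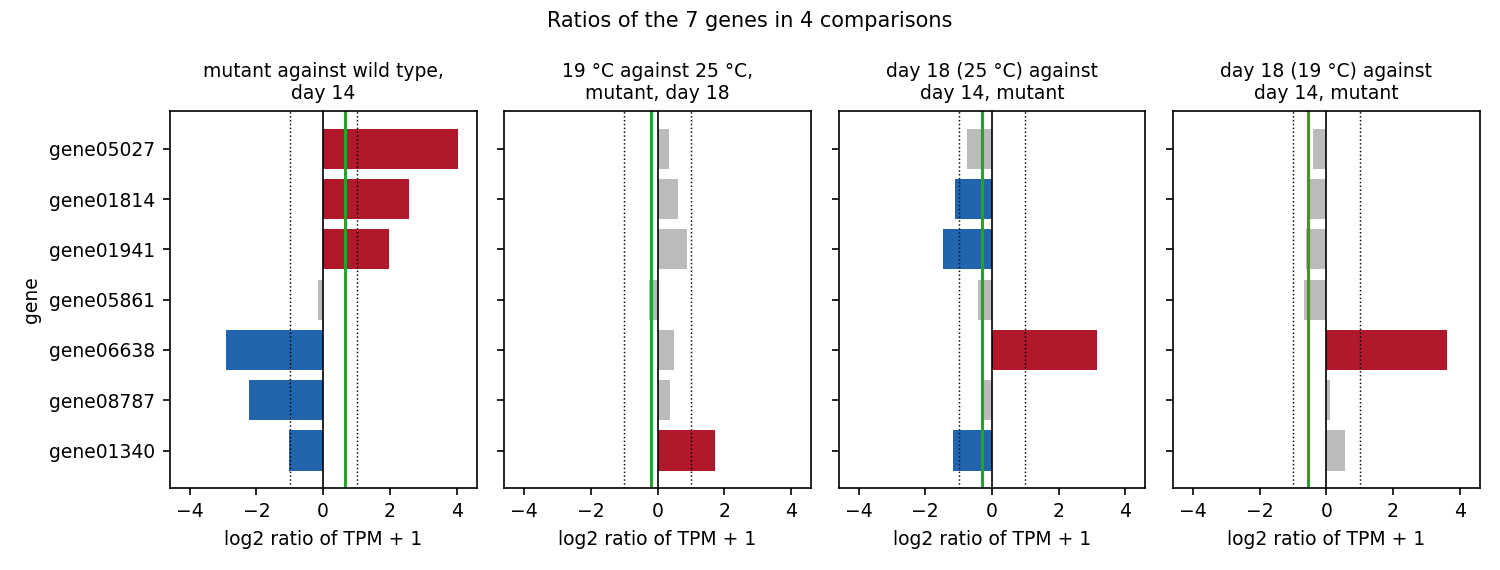
Log2 ratio of TPM plus 1 for each of the 7 genes in the 4 comparisons; bars past the dotted 2-fold lines are coloured (red higher, blue lower), and the green line is the median of all tested genes. The bar of gene06638 is at -2.90 between the strains and at 3.14 and 3.61 between day 18 and day 14.

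The genes numbered next to the members were read for patterns in common. The table gives no coordinates, so gene numbers are used as an order only. Of the 42 genes within 3 numbers of a member 37 were tested between the strains, and 17 of these (45.9%) were higher in the day 14 mutant by 2-fold or more and 4 (10.8%) lower, beside 40.7% and 14% of all tested genes. After rescaling by the median ratio 8 were higher and 13 lower, beside 24.7% and 26% of all tested genes. Near gene06638, gene06640 stood at 47.8, 36.6, 421.8 and 382.9 TPM and gene06641 at 57.8, 82.1, 499.0 and 806.7 TPM in the wild type, the mutant at day 14, 19 °C and 25 °C. Both were thus higher at day 18 than in the mutant at day 14, as gene06638 was, which 4.02% of 9508 genes were at both temperatures, but neither shared its high wild-type value. The neighbour on the other side, gene06637, with a best hit to a fatty acid elongase, was at 6.17, 25.9, 15.9 and 28.8 TPM.

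**Figure D5:**
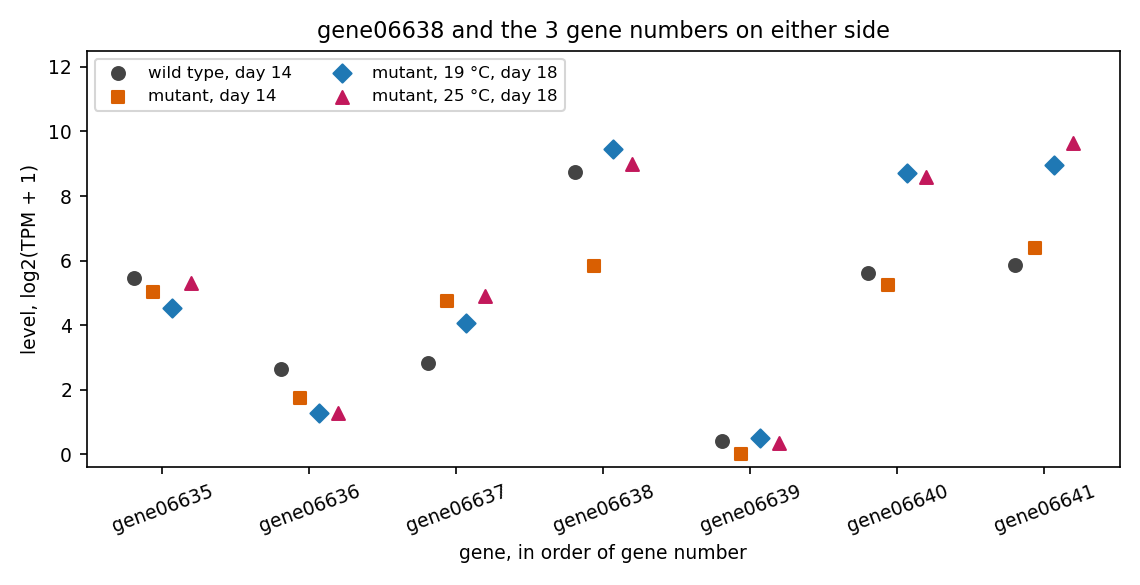
Level, as log2 of TPM plus 1, of gene06638 and the 3 gene numbers on either side in the 4 libraries. The day 18 points of gene06638, gene06640 and gene06641 lie above the mutant at day 14, and only for gene06638 of these 3 does the wild type lie near the day 18 points.

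Next to gene05027, an efflux pump gene with a best hit to apf11 (gene05028) was at 6.33, 14.9, 27.2 and 24.6 TPM, and ATP4, for a subunit of the mitochondrial ATP synthase (gene05029), at 198.6, 447.2, 430.4 and 345.3 TPM. On the other side a CFEM-domain gene (gene05026) was highest in the wild type, at 1467, 743.4, 856.3 and 507.8 TPM. Near gene01941, a gene with a best hit to an acyltransferase of monacolin synthesis (gene01939) was at 14.9, 128.9, 119.0 and 45.4 TPM, in the same order of libraries as gene01941 itself, while gene01943 was highest in the 25 °C library, at 158.3 TPM, and lowest in the mutant at day 14, at 78.8 TPM. Near gene01814, a dioxygenase gene with a best hit to imqE (gene01812) was at 32.9, 404.1, 125.7 and 89.3 TPM, again in the order of that member. Others beside it went the other way, since gene01811 at 3649, 1067, 1977 and 1735 TPM and gene01816 at 20.04, 14.7, 8.94 and 12.7 TPM were highest in the wild type. In all, 4 of the 18 neighbours of gene05027, gene01814 and gene01941 had the library order these members share as deposited, which 8.93% of 9508 genes had. Next to gene01340, hexaprenyl pyrophosphate synthase (gene01341), which makes a long prenyl chain, was at 31.2, 43.4, 37.95 and 22.95 TPM. Around gene05861, gene05858 stood at 645.7, 97.1, 72.2 and 39.2 TPM, and a short-chain dehydrogenase gene with a hit to SAT3 (gene05862) at 16.6, 36.5, 23.4 and 24.1 TPM.

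Likeness of pattern was measured as the distance between the 4 log2 values of TPM plus 1 after each gene was centred on its own mean, among 5383 genes with a Swiss-Prot hit and at least 10 TPM in some library. For 6 of the members the nearest gene lay at a distance of 0.065 to 0.164. These were the mitochondrial protein mam33 (gene01506) for gene01814, a signal peptidase subunit (gene10695) for gene05027, and a cytosine deaminase (gene10341) for gene01941. For gene05861, gene08787 and gene01340 they were a geranylgeranyl transferase subunit (gene06192), a transcriptional regulator (gene07950) and the mitochondrial ribosomal protein S27 (gene05201). The second nearest were gene08324, gene10642, gene09775, gene10334, gene07999 and gene06245 in the same order of members. The nearest gene to gene06638 was farther away, at 0.672, and it was the respiratory supercomplex factor gene07958, at 272.2, 62.3, 772.0 and 539.2 TPM. Its second was a copper chaperone gene of cytochrome c oxidase (gene05107), at 0.952. A nearest gene closer than 0.672 was found for 98.1% of the 5383 genes, whose median was 0.098. With 4 libraries many genes share any pattern, so these distances are a description.

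Measured in the same way, none of the 7 had its own cluster counterpart as its nearest efu gene. Each member had many other efu genes that could be nearest, so this count does not set the members apart from their counterparts. For gene05861 the counterpart, gene04142, was the second nearest, at 0.910, behind gene04129 at 0.864. The limit of 10 TPM was not applied to the efu genes. The highest values of gene05861 and gene04142 were 2.30 and 2.18 TPM, and at such levels log2 of TPM plus 1 varies little, which keeps distances small. The nearest to gene05027 was the cluster acetyltransferase efuC (gene04141), at 0.589, and its own counterpart lay at 3.23. The distance of gene06638 to the cluster efuI gene was 6.60, and that of gene08787 to efuE 2.68. The low P450 genes gene01814 and gene01941 were nearest to each other, at 0.724.

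Wider lists covered isoprenoid supply and the squalene and ergosterol branch, and which of their genes feed enfumafungin was not tested. Of 13 genes of isoprenoid supply, 5 were higher in the day 14 mutant by 2-fold or more and 1 lower (median log2 ratio 0.89). The shares over all tested genes were 40.7% and 14%, and their median was 0.64. In the squalene and ergosterol branch 7 of 17 were higher and 1 lower (median 0.63), so the share of higher genes in both lists was near that of the table. Of the 13 cluster models 11 were higher and 0 lower, with a median of 2.02. After rescaling by the median ratio 8 cluster models were higher and 1 lower, and the other lists no longer leaned to higher values, with 3 higher and 4 lower for isoprenoid supply and 2 higher and 3 lower for the squalene and ergosterol branch. The ends of the isoprenoid list were both geranylgeranyl pyrophosphate synthases, and a place on the route to enfumafungin was not tested for either. For wild type and mutant, gene09063 had 6.46 and 55.2 TPM and gene06243 had 23.6 and 11.9 TPM. Between temperatures, 2 cluster models were higher at 19 °C and 1 lower, and 3 isoprenoid genes were higher and 1 lower of 12 tested, with gene06243 at 60.1 TPM in the 19 °C library and 2.47 TPM in the other.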

How the data were processed

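Per the labels' protocols, total RNA of mycelium went into SMARTER mRNA-Seq libraries. The deposited values are TPM by the authors, rounded to 2 decimals, with each of the 4 columns summing to 1000000 within rounding. How reads were aligned and counted, and against which build and gene models, is not given in the sources used here. TPM keep no read depth, so counting error is unknown and no interval is given. Columns were matched by library name, and groups came from the titles.

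Ratios are differences of log2 of TPM plus 1. A gene was tested at 1 TPM or more in either library and called at 2-fold. Percentages beside counts are over all tested genes. No test was run, since each group has 1 library. The calling code was run on simulated data. The spread between cultures is unknown, so that run cannot say how firm the calls are, and this was not tested. The members and lists were chosen with earlier results of these data known. Domain families (Pfam) and the search for genes low in 1 library were chosen after values were seen. Named genes are the members, cluster genes with the same hit, the 2 nearest in pattern, neighbours within 3 gene numbers at 10 TPM or more, and extremes of the pathway and name lists in the strain and temperature comparisons; of the neighbours and extremes a selection is printed, and gene02065, gene03261, gene10680, gene04132, gene04141 and gene08885, an extreme of a Pfam family, fall outside this rule. Alternatives were pseudocounts of 0.1 and 5 TPM, no filter or 10 TPM, a 4-fold limit, and rescaling by the median ratio or without the 20 highest genes. Python 3.11.15, pandas 2.3.3, NumPy 2.4.6, SciPy 1.17.1 and matplotlib 3.10.9 were used.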

Additional observations from a re-analysis of the deposited data

Results flagged for a closer look

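For 2 genes the mutant at day 18 differed from day 14 in opposite directions at the 2 temperatures. For gene01340 the log2 ratio to day 14 was 0.56 at 19 °C and -1.16 at 25 °C, a gap of 1.72. Its mutant values were low, from 0.58 to 4.19 TPM. For gene08787 it was 0.11 and -0.26, a gap of 0.37, with both ratios within 2-fold. After rescaling by the median ratio both ratios of gene08787 were positive, at 0.58 and 0.046, so its opposite directions depend on the scaling. Both comparisons share the day 14 library, each rests on 1 library per group, and the difference was not tested.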

How the results depend on the processing

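No paired analysis was possible because each group has 1 library and the labels give no replicate numbers; for the same reason no library could be left out. In the strain comparison the counts of 3 higher and 3 lower were each 2 with a pseudocount of 5 TPM, a filter of 10 TPM or a 4-fold limit. They stayed at 3 and 3 under the other alternatives tried. The count of 1 gene higher at 19 °C was 2 with a pseudocount of 0.1 TPM and 0 with a pseudocount of 5 TPM, a filter of 10 TPM or a 4-fold limit. The count of 3 genes lower at day 18 and 25 °C was 0 with a pseudocount of 5 TPM or a 4-fold limit, and 1 with a filter of 10 TPM or rescaling by the median ratio. The count of 0 genes lower at day 18 and 19 °C was 1 with a pseudocount of 0.1 TPM, where gene05861 had -1.12. The count of 3 genes with the wild type highest was 1 with a 2-fold margin. Rescaling by the median ratio reversed 3 ratios that were within 2-fold: gene08787 at 25 °C against day 14, to 0.046, and gene01814 and gene05027 at 19 °C against day 14, to 0.024 and 0.15. The cause of these changes was not tested beyond the scaling or limit itself. That rescaling moved the median of all tested genes by -0.72 in the strain comparison, 0.18 between temperatures, and 0.34 and 0.51 between day 18 and day 14 at 25 °C and 19 °C. Of 112 ratios of single members under the other pseudocounts and scalings, 99 kept their direction and call. Of the rest, 8 lost a 2-fold call, 2 gained one and 3 changed sign. Most ratios were within 2-fold as deposited, so they had no call to lose. The depth is unknown, so how firm the values of the members under 10 TPM are cannot be said.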
